A study of Mus musculus with 4 samples.

Results

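The genes for making, carrying, sensing and degrading retinoic acid were compared between the anterior and the posterior lobes of the mouse cerebellum at postnatal day 7. The set has 9 members, taken by symbol: the synthetic enzymes ALDH1A1, ALDH1A2 and ALDH1A3, the binding proteins CRABP1, CRABP2 and RBP4, the uptake receptor STRA6, the nuclear receptor RARB and the degrading enzyme CYP26B1. Every probe of the chip that carries one of these symbols was taken, 15 of 45281 probes, and the chip holds 30854 symbols in all. Untreated Swiss mice gave 2 samples from the anterior lobes and 2 from the posterior lobes, and the RNA of each sample went to its own Illumina MouseWG-6 v2.0 array. The labels give no genotype, no sex and no number of animals per sample. They also do not say that the replicates are separate animals. XIST, the X-inactivation transcript, differed by replicate number in both lobes (values below), so the replicates are not repeats of the same RNA. The p-values measure the spread between these samples, in which sex and replicate number cannot be told apart and part may be technical.

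Retinoic acid is a small lipid made from vitamin A that switches genes on and off. Retinol reaches tissues in the blood on RBP4 together with transthyretin (TTR), and STRA6 is a membrane receptor that takes it up. Retinol is oxidized to retinal by dehydrogenases such as RDH10, and the ALDH1A enzymes oxidize retinal to retinoic acid. CRABP proteins hold retinoic acid in the cytoplasm, RARB is one of the nuclear receptors that bind it, and CYP26 enzymes break it down. In the developing brain the meninges, the membranes that cover the tissue, are a known place of ALDH1A2 expression and a source of retinoic acid.

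Promoter sequences are shown for RARB, a receptor gene that is a known target of its own ligand, and for the enzyme ALDH1A2. The signal of ALDH1A2 was higher in the posterior lobes on both of its probes, though neither passed the adjusted p given below. RefSeq windows from 250 bases before to 50 bases after a transcript start were at hand for 7 of the 9 members (build GRCm38.p6), 12 windows in all. CRABP2 and ALDH1A3 were not matched. Capitals mark the hexamers AGGTCA or GGGTCA or AGTTCA or GGTTCA on either strand, which are letters that retinoic acid receptors are known to bind when repeated. The RARB window lies at chr14:16575427-16575726 on the minus strand and the ALDH1A2 window at chr9:71215539-71215838 on the plus strand.
RARB: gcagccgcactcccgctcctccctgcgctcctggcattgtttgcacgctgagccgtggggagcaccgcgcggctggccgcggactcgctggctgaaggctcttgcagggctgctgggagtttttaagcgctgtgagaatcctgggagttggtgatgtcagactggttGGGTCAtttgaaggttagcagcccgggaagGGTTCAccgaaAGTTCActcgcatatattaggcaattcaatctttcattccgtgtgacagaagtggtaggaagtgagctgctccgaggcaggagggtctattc
ALDH1A2: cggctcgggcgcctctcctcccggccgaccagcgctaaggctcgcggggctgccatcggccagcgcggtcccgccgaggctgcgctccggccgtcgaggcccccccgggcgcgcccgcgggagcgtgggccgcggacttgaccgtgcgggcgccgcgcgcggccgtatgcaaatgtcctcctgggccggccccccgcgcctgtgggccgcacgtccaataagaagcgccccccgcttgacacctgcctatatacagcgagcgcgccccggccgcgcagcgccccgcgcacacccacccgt
The RARB window holds 3 hexamers, and its last hexamers stand as a direct repeat with 5 bases between, starting 53 bases before the transcript start. Such a repeat, on either strand and with any of the hexamers overlapping others, was found in 0.0974% of all 32851 promoter windows, and a single hexamer in 43.7%. The ALDH1A2 window holds none of these letters. Among the other windows, 1 of ALDH1A1, 1 of RBP4 and 1 of STRA6 held a single hexamer. These matches describe letters only and do not show binding.

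Signals were given by the authors as the mean bead intensity of each probe, and a probe was counted as detected on an array when its detection p-value, the share of background control probes at least as bright, was under 0.05. Between 46.5% and 47.6% of probes were detected per array. The median intensity was 110.2 to 129.6, and the number of arrays limits the precision. Bright cerebellar markers were present on all 4 arrays, for example ZIC1 of granule cells between 13.15 and 13.42, ITPR1 of Purkinje cells (ILMN_1230357) between 14.73 and 14.88 and GDF10 of Bergmann glia between 13.83 and 13.98 as quantile-normalized log2 signal. The probes of ATOH1 and MYCN, which mark granule cell progenitors, and of CALB1, CAR8 and PCP4, which mark Purkinje cells, were not detected on any array. The arrays of replicate 1 stood apart from those of replicate 2 in both lobes in the X-inactivation transcript XIST, which had a log2 signal of 12.58 and 12.49 on the replicate 1 arrays and 6.51 and 6.64 on the replicate 2 arrays for ILMN_1224091. TTR, which is also the main transcript of the choroid plexus, followed the replicate number too. Its log2 signal was 9.10 and 13.34 in the anterior and 8.37 and 11.85 in the posterior lobes, replicate 1 before replicate 2. By limma, 23 of 21726 tested probes (0.106%) differed between the lobes at an adjusted p under 0.05. The thresholds of the study were a fold over 1.2 and an unadjusted p under 0.05. Here they were applied to the limma p, so the calls need not match those of the study. By this criterion, 3.30% of tested probes were higher and 5.0% were lower in the posterior lobes. The higher probes were 39.7% of these calls, and 53.5% when the arrays were shifted to a common 75th percentile.

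Of the 15 probes of the set, 10 were bright enough to be tested, 8 were detected on all 4 arrays and 5 were not detected on any. None of the 10 tested probes passed the adjusted p, the smallest being 0.15 by limma, against the 0.106% of all probes that did. By the criterion of fold and unadjusted p, 5 of the 10 probes, from 4 genes, were higher in the posterior lobes, beside 3.30% of all probes, and 0 were lower, beside 5.0%. These are both probes of ALDH1A2 and a probe each of CRABP2, STRA6 and RARB. CRABP2 was tested only because of its posterior arrays, and among the 8 probes detected everywhere 3 met the criterion. The median log2 difference, posterior minus anterior, was 0.26 over the 10 probes and 0.0023 over all tested probes. In 5 of the 10 probes each posterior array was brighter than each anterior one, which held for 21.1% of all tested probes, and in 0 each was dimmer, which held for 21.5%. The members, and the gene lists below, were chosen with earlier results of these data known. The shares beside those of all probes therefore describe the set and do not test it. The count of 5 fell to 3 without anterior replicate 1, to 2 without posterior replicate 1 and to 0 without posterior replicate 2. Over all probes the criterion was met, in either direction, by 4677, 766 and 811 in the same order, against 1802 with all arrays.

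**Figure D1:**
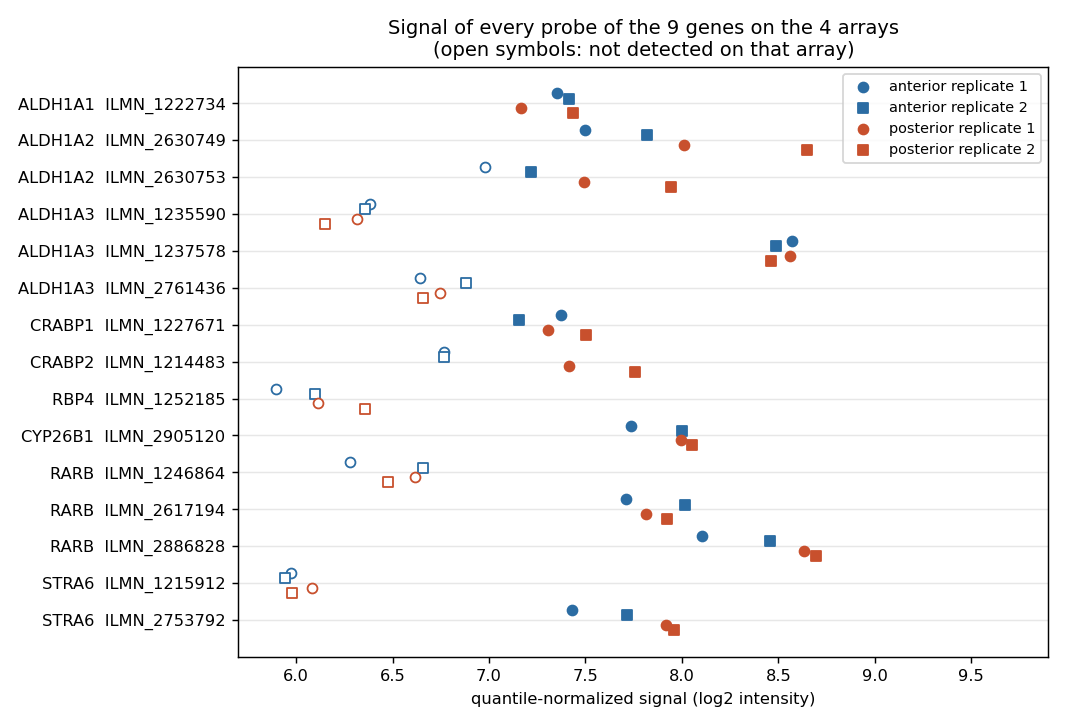
Quantile-normalized log2 signal (x axis) of all 15 probes of the 9 genes (rows) on the 4 arrays, anterior in blue and posterior in red, replicate 1 as circles and replicate 2 as squares, open where the probe was not detected. Among the tested probes, the posterior points lie to the right of the anterior ones for those of ALDH1A2 and CRABP2, for ILMN_2886828 of RARB and for ILMN_2753792 of STRA6.

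Among the synthetic enzymes, ALDH1A2, also named RALDH2, had a higher signal in the posterior lobes on both of its probes. The intensity of ILMN_2630749 was 195.9 and 206.9 on the anterior arrays and 255.2 and 403.5 on the posterior arrays, replicate 1 before replicate 2. The second probe, ILMN_2630753, gave 135.2 and 134.2 in the anterior lobes and 180.6 and 246.9 in the posterior lobes. Posterior replicate 2 was the brightest array for both probes, and the groups did not overlap. After normalization the log2 signal of ILMN_2630749 averaged 7.66 ± 0.23 (SD, n = 2 arrays) anteriorly and 8.33 ± 0.45 posteriorly. The log2 difference was 0.67 with a standard error of 0.23, a 1.59-fold higher signal (unadjusted p = 0.029, adjusted p = 0.44 by limma). For ILMN_2630753 the log2 signal was 7.10 ± 0.17 and 7.72 ± 0.32, and the log2 difference was 0.62 with a standard error of 0.18 (unadjusted p = 0.013, adjusted p = 0.36 by limma). ILMN_2630753 was not detected on the array of anterior replicate 1, where its detection p-value was 0.057. Without posterior replicate 2 the differences were 0.35 and 0.40, and neither probe met the criterion.

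The other enzymes of the same step did not meet the criterion. ALDH1A1, a retinal dehydrogenase also used as a marker of some dopamine neurons, had an intensity of 177.2 and 154.9 in the anterior and 144.0 and 174.6 in the posterior lobes, so the groups overlapped. Its log2 difference was -0.083, with a 95% confidence interval from -0.39 to 0.23. ALDH1A3 was measured by a bright probe and a dim pair. The bright probe, ILMN_1237578, had an intensity of 416.6 and 329.0 in the anterior and 372.1 and 352.4 in the posterior lobes. Its log2 difference was -0.016, with an interval from -0.31 to 0.28, and was 0.00085 when the arrays were shifted to a common 75th percentile. The remaining probes of ALDH1A3 were not detected on any array, with intensities between 71.6 and 107.4, and give no fold. Whether the difference of ALDH1A2 exceeds those of ALDH1A1 and ALDH1A3 was not tested.

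CRABP2, which carries retinoic acid to its nuclear receptors, was above background in the posterior lobes only. Its probe, ILMN_1214483, had an intensity of 116.0 and 99.6 on the anterior arrays and 171.0 and 217.4 on the posterior arrays. It was not detected on either anterior array, with detection p-values of 0.13 and 0.14, and was detected on both posterior arrays, with 0.016 and 0.0032. Since the anterior signal cannot be told from background, the difference is a bound. The normalized log2 signal was 6.77 in the anterior lobes and 7.59 ± 0.24 (SD, n = 2 arrays) in the posterior lobes, with 7.42 and 7.76 on the posterior arrays. The mean posterior signal was at least 1.48-fold higher, a bound that makes no allowance for the spread of the posterior arrays. For this bound each anterior array was given the dimmest signal that still counted as detected on it. The fit gave an unadjusted p of 0.00098 and an adjusted p of 0.15 by limma. The adjusted p was 0.0075 without anterior replicate 1 and 0.044 without anterior replicate 2, and without a posterior array the probe was not tested. In those fits the lone anterior array is assumed to vary like the posterior ones, and 2538 and 221 of all probes passed the adjusted p, against 23 with all arrays.

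CRABP1, the second cytoplasmic carrier, did not differ beyond the spread between replicates. Its intensity was 179.9 and 128.4 in the anterior and 158.1 and 182.6 in the posterior lobes, and the groups overlapped. The log2 difference was 0.14, with a 95% confidence interval from -0.18 to 0.45. RBP4, the retinol carrier of the blood, was not detected on any array. Its intensity was 61.9 and 64.4 in the anterior and 69.7 and 82.9 in the posterior lobes, with detection p-values from 0.31 to 0.94, so it gives no fold.

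STRA6, which moves retinol across the cell membrane, was higher in the posterior lobes by the criterion on 1 of its probes. ILMN_2753792 had an intensity of 187.4 and 192.2 in the anterior and 239.1 and 249.0 in the posterior lobes. The posterior arrays were close to each other and the groups did not overlap. The log2 signal was 7.57 ± 0.20 (SD, n = 2 arrays) and 7.94 ± 0.027, and the log2 difference was 0.36 with a standard error of 0.13 (unadjusted p = 0.035, adjusted p = 0.45 by limma). The second probe of STRA6, ILMN_1215912, was not detected on any array, with intensities from 58.2 to 68.1. STRA6 no longer met the criterion without anterior replicate 1 (0.22), without posterior replicate 1 (0.39), without posterior replicate 2 (0.35) or without normalization (0.36).

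RARB, a nuclear receptor of retinoic acid and the gene with the direct repeat shown above, gave different values on its 3 probes. ILMN_2886828 had an intensity of 302.7 and 322.6 in the anterior and 388.9 and 416.3 in the posterior lobes. Its log2 signal was 8.28 ± 0.25 (SD, n = 2 arrays) and 8.66 ± 0.042, a log2 difference of 0.38 with a standard error of 0.15 (unadjusted p = 0.049, adjusted p = 0.49 by limma). The posterior arrays lay above the anterior ones on this probe. ILMN_2617194, detected on all 4 arrays as well, had an intensity of 227.9 and 236.2 in the anterior and 223.4 and 242.9 in the posterior lobes. Its log2 difference was 0.0053, with a 95% confidence interval from -0.34 to 0.35, and the groups overlapped. The third probe, ILMN_1246864, was not detected on any array, with intensities from 81.8 to 98.2. The table does not say which transcripts of RARB the probes match. ILMN_2886828 lost the criterion without anterior replicate 1 (0.21), without posterior replicate 1 (0.41), without posterior replicate 2 (0.35), without normalization (0.36) and with neqc background correction (0.47).

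CYP26B1, which degrades retinoic acid, was the only CYP26 enzyme detected. Its intensity was 231.7 and 233.9 in the anterior and 252.5 and 265.4 in the posterior lobes. After normalization anterior replicate 2 and posterior replicate 1 both had a log2 signal close to 8, so the groups overlapped. The log2 difference was 0.15, with a 95% confidence interval from -0.17 to 0.48. Both probes of CYP26A1 were not detected on any array, and CYP26C1 had no probe under that symbol.

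**Figure D2:**
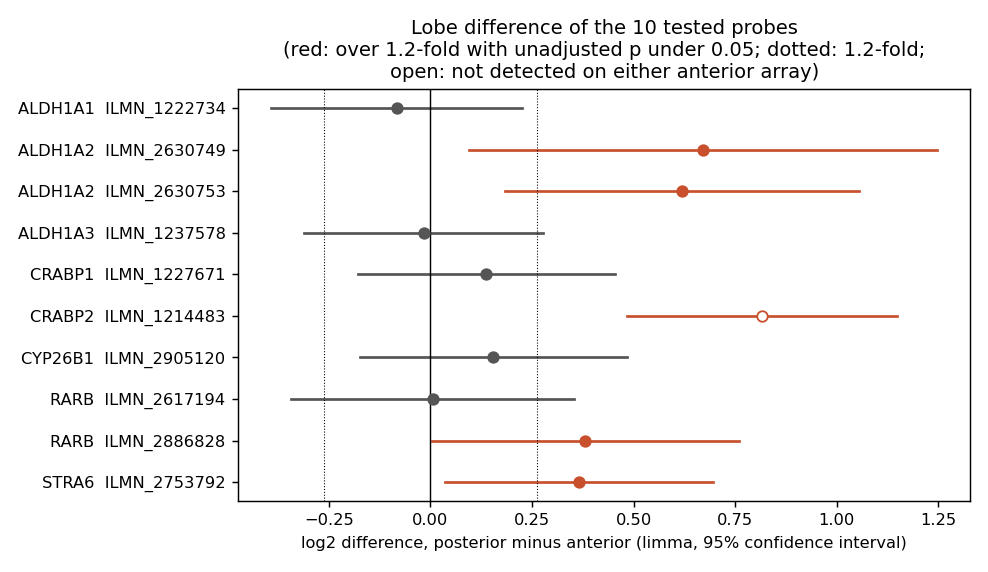
Log2 difference, posterior minus anterior (x axis), of the 10 tested probes (rows) with the 95% confidence interval from limma, red where the fold was over 1.2 with an unadjusted p under 0.05 and open where the probe was not detected in the anterior lobes. The interval of CRABP2 is against background and is no measured size, and those of STRA6 and of the red RARB probe start at 0.035 and 0.0030.

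The wider retinoid pathway was read from 5 lists of further genes, 66 genes in all, of which 61 had a probe and 34 were bright enough to be tested. Of their 54 tested probes, 7 were higher and 2 were lower in the posterior lobes by the criterion, 45 met it in neither direction and 0 passed the adjusted p. The median log2 difference was 0.023, beside 0.0023 over all tested probes. Among the genes that store, carry or convert retinol, 2 of 7 tested probes were higher and 0 lower. RLBP1, a retinal carrier of glia in the retina, had a log2 difference of 0.46 (unadjusted p = 0.0045, adjusted p = 0.27 by limma). TTR, whose signal was lower in the posterior lobes at each replicate number, did not meet the criterion, with a log2 difference of -1.11 and a standard error of 1.6. The difference turned to 0.63 without posterior replicate 1 and to 1.01 without anterior replicate 2. LRAT, which stores retinol as an ester, was not detected on any array.

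The dehydrogenases that convert retinol to retinal and back showed few differences. Of 18 tested probes from 12 genes, 0 were higher and 1 was lower, that of RDH12, with a log2 difference of -0.31 (unadjusted p = 0.043, adjusted p = 0.48 by limma). RDH10, the main retinol dehydrogenase of the embryo, had a log2 difference of -0.14 with a standard error of 0.15. DHRS3, which reduces retinal back to retinol, was not detected on any array. Among the further genes of binding and breakdown, 0 of 3 tested probes met the criterion.

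Of 16 tested probes of the other receptors and their partners, 4 were higher and 1 was lower in the posterior lobes. The higher ones belong to the acetyltransferases CREBBP and EP300, which serve many transcription factors besides the retinoid receptors, with log2 differences from 0.30 to 0.66 and adjusted p-values from 0.36 to 0.46 by limma. The lower one was ILMN_1245492 of RXRB, a partner receptor, with -0.30 (unadjusted p = 0.048, adjusted p = 0.49 by limma), while the 2 further probes of RXRB had 0.018 and -0.12. RXRG, another partner, had a log2 difference of 0.27 with a standard error of 0.14, and the detected probe of RARG had 0.14 with a standard error of 0.10. RARA and RXRA were not detected on any array. Among 14 genes that retinoic acid is known to induce, 6 were tested with 10 probes, and 1 probe met the criterion. It was that of TGM2, tissue transglutaminase, with a log2 difference of 0.41 (unadjusted p = 0.013, adjusted p = 0.36 by limma). The 10 probes had a median of -0.019. HOXB1, HOXA5, HOXB5 and CYP26A1 were not detected on any array.

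**Figure D3:**
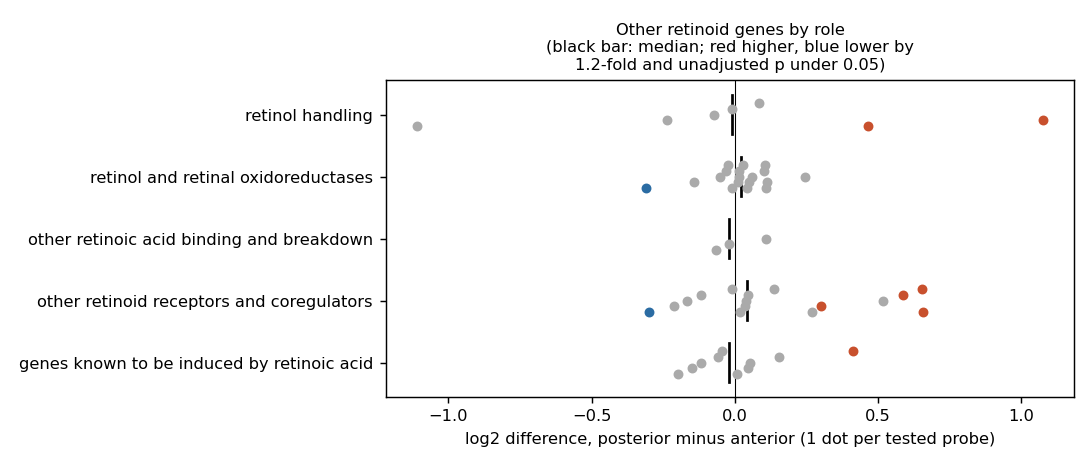
Log2 difference, posterior minus anterior (x axis), of each tested probe of the 5 lists of further retinoid genes (rows), red where higher and blue where lower by the criterion, with the median of each list as a black bar. Most probes lie near 0, and the lists have medians between -0.020 and 0.043.

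Most tested marker probes of meningeal fibroblasts, the cells known to express ALDH1A2, lay on the same side of 0 as ALDH1A2 and CRABP2. In these bulk samples, more cells of a type and more RNA per cell cannot be told apart. Of 15 marker genes 13 were tested with 18 probes, of which 9 probes from 7 genes were higher in the posterior lobes by the criterion and 0 were lower. Of these 9, ILMN_1254458 of DCN and ILMN_2999762 of FMOD were not detected on either anterior array and were tested only because of the posterior arrays. Over the 18 probes the median of the log2 differences was 0.45, 15 lay above 0 and the lowest was -0.18. The criterion was met in neither direction by 9 of the 18. The summed normalized intensity of the 18 probes was 20050.5 and 22182.6 on the anterior arrays and 29107.3 and 33523.3 on the posterior arrays, highest on posterior replicate 2 as for ALDH1A2. The proteoglycan OGN rose from 7.97 ± 0.059 (SD, n = 2 arrays) to 9.97 ± 0.33 as log2 signal (adjusted p = 0.035 by limma). DCN, another proteoglycan, rose from 11.73 ± 0.057 to 12.66 ± 0.0088 on ILMN_2747959 (adjusted p = 0.024 by limma). The brightest marker, the growth factor IGF2, had a log2 difference of 0.47 (adjusted p = 0.33 by limma), and the meningeal transcription factors FOXC2 and FOXD1 were not detected on any array. Without posterior replicate 1 and without posterior replicate 2, the log2 differences were 2.24 and 1.76 for OGN and 0.92 and 0.94 for DCN. With eBayes without trend neither OGN nor DCN passed the adjusted p (0.063 and 0.073 by limma). Of all probes 13 passed it there, against 23 with the trend. The part of meningeal cells in the differences of ALDH1A2, CRABP2, STRA6 and RARB was not tested.

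Markers of the other cell types were read in the same way. Of 6 tested probes from the choroid plexus list of 10 genes, 2 were higher and 1 was lower, with a summed intensity of 1954 and 12095.4 in the anterior and 6433.7 and 8415.8 in the posterior lobes, replicate 1 before replicate 2. The higher probes were those of OTX2, a homeobox gene also active in posterior granule cells, and PRLR. CLIC6, a chloride channel of the choroid plexus, was lower, with a log2 difference of -0.89 (unadjusted p = 0.017, adjusted p = 0.39 by limma). After normalization ALDH1A2 had a higher log2 signal on replicate 2 than on replicate 1 in both lobes, as TTR had, while the unnormalized anterior intensities of ILMN_2630753 were 135.2 and 134.2, and the part of choroid plexus in this was not tested. Of 19 tested probes of oligodendrocyte genes 18 were lower in the posterior lobes, with a median of -1.07. The medians of the endothelial, pericyte, granule cell, Purkinje cell, astroglial, unipolar brush cell and microglial lists lay between -0.092 and 0.067. By the criterion, 2 of 7 unipolar brush cell probes, both of CALB2, and 1 of 9 endothelial probes, ILMN_2866951 of CDH5, were higher, and in the remaining lists 0 probes met it in either direction.

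**Figure D4:**
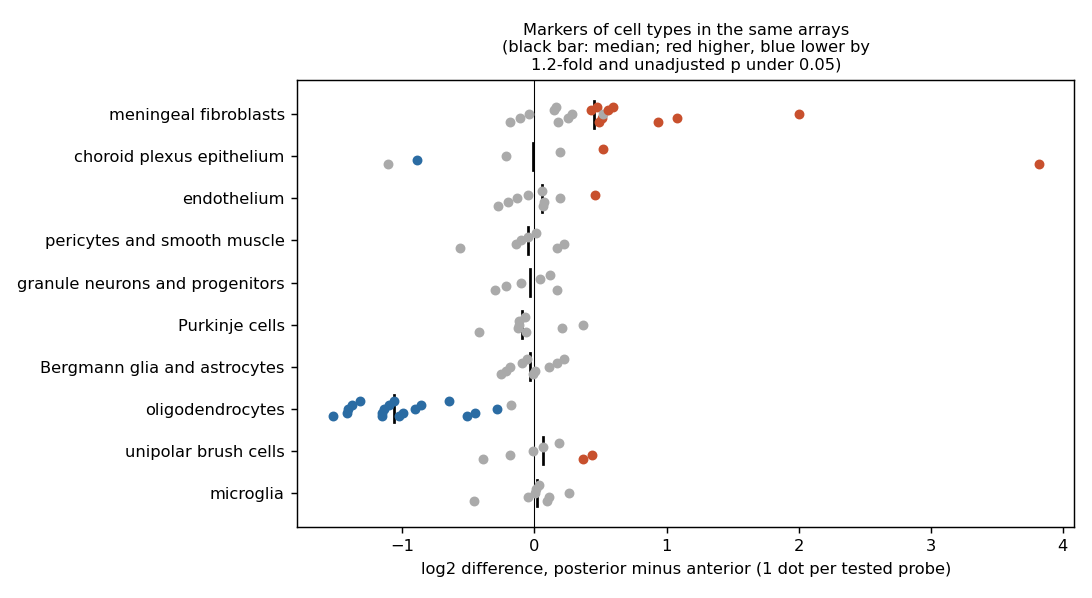
Log2 difference, posterior minus anterior (x axis), of each tested probe of 10 lists of cell type markers (rows), red where higher and blue where lower by the criterion, with the median of each list as a black bar. The meningeal list has a median of 0.45 and the oligodendrocyte list of -1.07, and the point near 3.8 in the choroid plexus row is OTX2.

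The log2 differences of the 5 probes were compared across the processing alternatives. All 5 stayed above 0 under every alternative that tested them. They were picked by the criterion on these same arrays, with each posterior array above each anterior one. The filters, eBayes without trend and the replicate block leave the difference itself unchanged. The sign was therefore all but fixed in advance and is no measure of stability. The probes of ALDH1A2 lay between 0.35 and 1.00 and between 0.40 and 0.99, that of STRA6 between 0.22 and 0.53, and that of RARB between 0.21 and 0.55. ALDH1A2 met the criterion under 12 of 13 alternatives with ILMN_2630749 and under 10 of 11 with ILMN_2630753. STRA6 met it under 9 of 13 and RARB under 8 of 13. CRABP2 met it under all 9 that tested it, but its probe passed the filter only through the posterior arrays. It was filtered out with detection required on every array, with the stricter detection p and when a posterior array was left out. The count of CRABP2 therefore cannot be set beside those of STRA6 and RARB as a measure of stability.

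**Figure D5:**
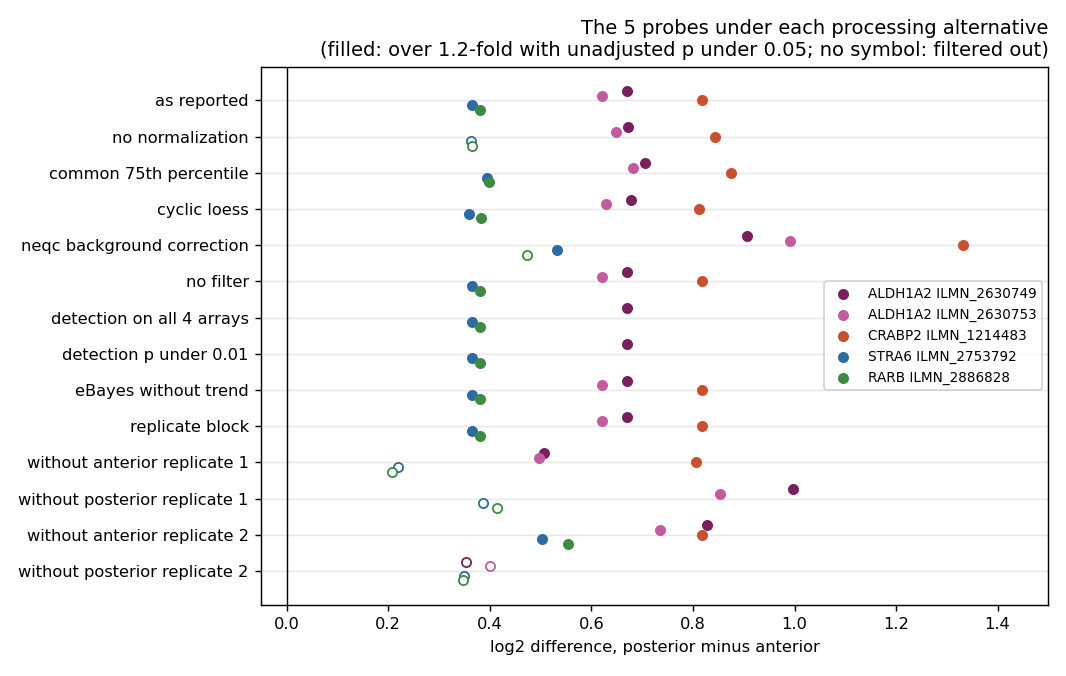
Log2 difference, posterior minus anterior (x axis), of the 5 probes (colors) as reported and under each processing alternative (rows), filled where the fold was over 1.2 with an unadjusted p under 0.05 and missing where the probe was filtered out. All points lie above 0, which the choice of these probes on the same arrays favors, and without posterior replicate 2 none is filled.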

How the data were processed

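Each of 4 RNA samples had its own array (Illumina MouseWG-6 v2.0). For 45281 probes the authors deposited an intensity, the mean over beads, from GenomeStudio 1.9.0, with its normalization switched off, the SD and number of beads, and a detection score, a fraction equal to 1 minus the detection p-value. Another 16 columns per table were not used. The floor of 1 and the log2 scale of the study's methods were applied here, after quantile normalization. Probes detected (p-value under 0.05) on 2 or more of the 4 arrays were fitted together with limma 3.58.1 in R 4.3.3 (lmFit, eBayes with trend) and Benjamini-Hochberg adjustment. The method was tested on simulated data with independent noise on each array, without the differences between replicate numbers seen in these samples. An exact permutation test of 2 against 2 arrays cannot go below p = 0.33. Array means of the tested members rest on 18 to 66 beads, with a standard error over beads of 2.92% to 8.28% of the signal. Figures were drawn with matplotlib 3.10.9.

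The members and all gene lists were chosen with earlier results of these data known. The genes named are all members, the further retinoid genes that met the criterion, a fixed set of carriers, enzymes and receptors, the brightest meningeal marker, and other marker genes picked after their values were seen. Some genes of these lists are counted but not reported here by name. Each probe is reported on its own, under the symbol of the array. The alternatives were cyclic loess, neqc (offset 16, control levels inferred from the detection p-values), unnormalized values, scaling to 1 common 75th percentile, no filter, detection on all 4 arrays, detection p under 0.01, eBayes without trend, a replicate block, and the omission of each array in turn.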

Additional observations from a re-analysis of the deposited data

How the results depend on the processing

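The number of probes of the set past the adjusted p was 0 by limma, and 5 met the criterion of 1.2-fold and unadjusted p. The adjusted count was 3 with the replicate number as a block and 0 to 1 when an array was left out. It was 1 without anterior replicate 1 and 1 without anterior replicate 2, both times CRABP2, where 2538 and 221 of all probes passed against 23. The count by the criterion was 3 without normalization, 3 with detection on all 4 arrays, 3 with a detection p under 0.01, and 0 to 5 when an array was left out. The stricter filters test fewer probes (8 and 6), and the other causes were not tested.

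With the replicate block, CRABP2 (adjusted p = 0.0040 by limma) and ALDH1A2 (0.022 and 0.018) passed the adjusted p, and over all probes 588 did against 23. TTR passed it too, with a log2 difference of -1.11, a standard error of 0.15 and an adjusted p of 0.0032 by limma. Over their alternatives the adjusted p of CRABP2 ranged from 0.0040 to 0.20, and those of ALDH1A2 from 0.022 to 0.99 and from 0.018 to 0.99. The sources do not say that equal numbers share animals, but XIST and TTR followed the replicate number in both lobes. The fit without the block counts differences between replicate numbers as spread. The anterior and posterior differences of replicate 1 from replicate 2 had a Pearson r of 0.46 across tested probes, which describes only 2 pairs.

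Values near 0 changed sign, and so did that of TTR, which was not near 0. Leaving out 1 array at a time, ILMN_2617194 of RARB lay from -0.14 to 0.16 (-0.14 without anterior replicate 1, -0.048 without posterior replicate 2). ALDH1A1 lay from -0.22 to 0.051, above 0 without posterior replicate 1. ILMN_1237578 of ALDH1A3 was 0.00085 at a common 75th percentile and lay from -0.066 to 0.032 with arrays left out, 0.027 without anterior replicate 1 and 0.032 without posterior replicate 2. ILMN_2547313 of RXRB lay from -0.22 to 0.26, with -0.22 and -0.092 without the same arrays. RDH10 lay from -0.33 to 0.036, above 0 without posterior replicate 1. TTR had -1.11 with all arrays and was lower in the posterior lobes at each replicate number. With arrays left out it lay from -3.23 to 1.01, with 0.63 without posterior replicate 1 and 1.01 without anterior replicate 2. No scaling moved the median of all probes by more than 0.1 on the log2 scale. Dim probes limit the set, since 5 of 15 were not above background.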
